A study of Mus musculus with 3 samples.

Results

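The genes described are 48 DNA repair and damage checkpoint genes, taken by symbol from a list of names out of 55487 genes in the count table, after its Ensembl identifiers had been matched to GENCODE M21 symbols. All 48 were found. They were measured in mpkDCT4a cells, a mouse kidney line whose label, DCT, is the usual short form of distal convoluted tubule, the segment with the thiazide-sensitive sodium chloride cotransporter. 3 libraries labelled as replicates made up 1 group, for which the labels name no treatment or genetic change, with no treated, mutant or control group beside it, so no comparison between conditions was possible. All 3 were kept at 37 °C under 5% CO2 in a medium with serum (2%), insulin (5 µg/ml), epidermal growth factor (10 ng/ml), dexamethasone (50 nM), the thyroid hormone triiodothyronine (1 nM), transferrin and selenate. No source ties the replicates to separate cultures. The p-values below therefore describe how far these 3 samples spread, and that spread may be purely technical.

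Cells mend their DNA by several routes. Homologous recombination copies a broken stretch from the sister chromatid and works in dividing cells, end joining rejoins broken ends at any time, and the Fanconi anaemia pathway clears crosslinks between strands. Excision pathways cut out damaged bases, bulky lesions or mismatches, while the kinases Atm and Atr and their effectors Chek1 and Chek2 hold the cell cycle until repair is done.

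The libraries held 436983 to 482418 counts, and a single count equalled 2.31 CPM (counts scaled to an equal library total) in replicate 1, 2.07 CPM in replicate 2 and 2.24 CPM in replicate 3. The sources used here do not say what share of the sequenced reads these totals hold, or which annotation release was counted. Detection meant a mean CPM of 1 or more, so detection and 0 counts hold for this depth. Different genes are compared in TPM, in which counts are divided by the total exon length of the gene before scaling. Values after ± are SDs (n = 3 libraries). Intervals cover counting error only. All 9 markers of dividing cells were at 111.7 TPM or more, with Top2a at 474 ± 14.2 TPM, Rrm2 at 423 ± 15.4 TPM and Mcm4 at 385 ± 37.8 TPM. Of 9 markers of the labelled cell type 5 were detected, but Slc12a3, the cotransporter itself, Pvalb, Klhl3 and Calb1 had 0 counts in every library and Wnk4 was the highest at 40.0 ± 9.56 TPM. The leukocyte markers had 0 of 5 genes with a count, and the endothelial markers 1 of 4 (Flt1). Of the proximal tubule markers, 3 of 6 were detected (Lrp2, Aqp1 and Cubn). Aqp1 at 84.6 ± 25.5 TPM and Lrp2 at 47.3 ± 3.70 TPM had higher means than Wnk4, and Cubn was at 1.26 ± 0.246 TPM. The other proximal tubule markers, Slc34a1, Slc5a2 and Slc22a6, had 0 counts in every library. Of the fibroblast and smooth muscle markers, 4 of 5 were detected at 13.5 TPM or less, led by Tagln.

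Transcripts of all 48 genes were detected, against 50.6% of all protein-coding genes. A mean of at least 10 CPM was reached by 41 of them (40.8% of all protein-coding genes) and 100 CPM by 11 (12.2%). The median of the 48 genes was 25.5 ± 1.86 TPM, against 31.4 ± 0.346 TPM over the 11122 detected protein-coding genes, and 20 of the 48 lay above that second median. In CPM, with no division by length, the order was the opposite, with medians of 44.3 ± 3.25 CPM for the 48 genes and 39.6 ± 0.602 CPM for detected protein-coding genes. Their TPM levels were thus near the middle of the expressed genes, at a median percentile of 43.3, with 6 genes in the top 25% and 9 in the bottom 25%. Together they took 6018 counts, or 0.442% of all counts. Of these, 36.5% came from Ddb1 alone. In such bulk samples fewer cells with a transcript and less of it per cell cannot be told apart.

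**Figure D1:**
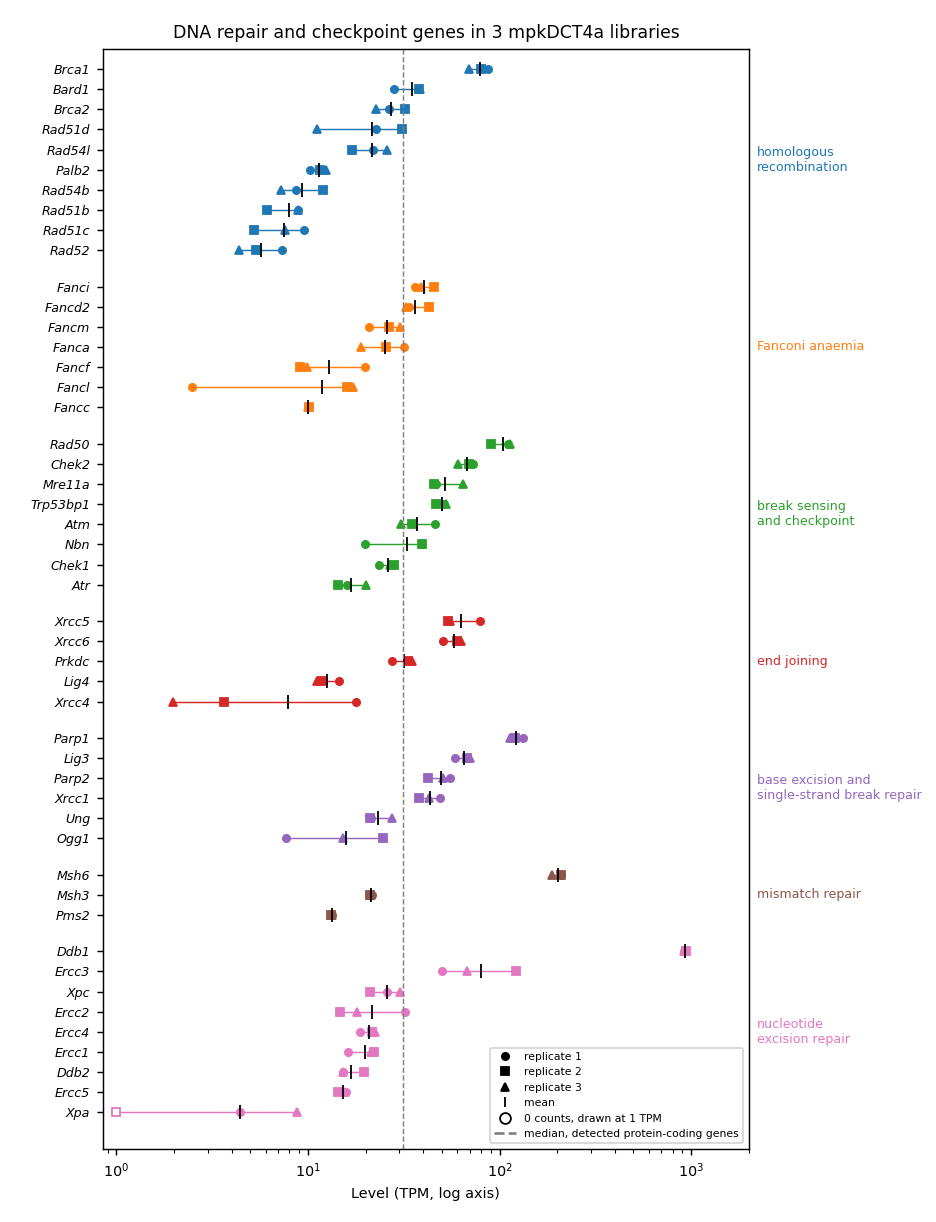
Level of each repair and checkpoint gene in TPM (log axis) in the 3 libraries, grouped by pathway, with a bar at the mean and a dashed line at the median of the detected protein-coding genes. Ddb1 stands apart at 927 TPM, and Xpa, with an open marker drawn at 1 TPM for its 0 counts in replicate 2, is the lowest at 4.40 TPM.

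The plot of levels by pathway orders the genes as follows. Base excision and single-strand break repair had the highest median, 46.3 ± 5.90 TPM, with 4 of 6 genes above the median of detected protein-coding genes. Break sensing and checkpoint genes followed at 43.6 ± 2.16 TPM (6 of 8 above it) and end joining genes at 31.7 ± 3.92 TPM (3 of 5). The median was 25.3 ± 3.31 TPM in the Fanconi anaemia group (2 of 7), 21.4 ± 0.208 TPM in mismatch repair (1 of 3) and 20.9 ± 1.48 TPM in nucleotide excision repair (2 of 9). Homologous recombination was the lowest at 16.5 ± 2.10 TPM (2 of 10). These 7 medians come from 3 to 10 genes each, were computed by exon length only and were not tested against each other. The exons of Msh3, the middle gene of mismatch repair, sum to 11254 bases, against 4254 for its longest transcript. Their order depended on which genes were listed. Among the further repair genes described below, 17 base excision genes had a median of 17.4 ± 4.32 TPM. The 15 further homologous recombination genes had a higher median, 25.05 ± 4.18 TPM, the reverse of the order here. Checkpoint genes were high in both sets, with 70.4 ± 3.01 TPM over 15 further genes.

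Within homologous recombination the 2 breast cancer genes and the partner of Brca1 had the highest means per exon length. The libraries of Brca2 (22.6 to 32.1 TPM) overlapped those of Rad51d (11.2 to 31.0 TPM). The order was not computed with other lengths. The exons of Rad54l sum to 7706 bases, against 4571 for its longest transcript, and those of Bard1 to 5659 by both. Brca1, which directs break ends to recombination (ENSMUSG00000017146, on the minus strand of GRCm38 chromosome 11 from 101488764 to 101551955), had 89, 89 and 71 counts, listed here and below by replicate number, or 78.8 ± 9.08 TPM. Bard1, which forms a ubiquitin ligase with Brca1, had 19, 28 and 26 counts (34.8 ± 5.79 TPM). Brca2, a mediator of strand exchange, had 43, 57 and 37 counts (27.0 ± 4.79 TPM), while Palb2, the bridge between Brca1 and Brca2, had 9, 11 and 11 (11.4 ± 1.11 TPM). In TPM no library of the other 3 genes reached any library of Brca1.

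Per exon length, the lower part of this pathway held accessory factors of strand exchange. Rad51d stood at 21.6 ± 9.94 TPM from 10, 15 and 5 counts, and its relatives Rad51b (4, 3 and 4 counts, 7.96 ± 1.59 TPM) and Rad51c (5, 3 and 4 counts, 7.46 ± 2.15 TPM) were lower. In TPM every library of Rad51d was above every library of Rad51b and Rad51c. The translocase gene Rad54l had 20, 17 and 24 counts (21.5 ± 4.49 TPM) and its relative Rad54b 6, 9 and 5 counts (9.27 ± 2.43 TPM). Of the exon bases of Rad54b, 35.9% also lie in exons of other genes, mainly Fsbp, so its counts are uncertain. Rad52, which anneals single strands, was the lowest of the pathway at 5.65 ± 1.49 TPM (5, 4 and 3 counts).

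The Fanconi anaemia group holds the protein pair that is marked with ubiquitin and parts of the ligase complex that marks it. Their order below is per exon length and was not computed with other lengths. The exons of Fanca sum to 8761 bases, against 4485 for its longest transcript. Those of Fanci sum to 5774 against 4645, and those of Fancd2 to 7937 against 5512. Fanci (25, 34 and 27 counts, 40.1 ± 4.62 TPM) and Fancd2 (32, 44 and 31 counts, 36.3 ± 5.50 TPM), which form that pair, were the highest. The DNA translocase gene Fancm followed at 25.9 ± 4.75 TPM (26, 36 and 38 counts) and the core complex gene Fanca at 25.3 ± 6.26 TPM (33, 29 and 20 counts). The other core complex genes were lower, with Fancf at 12.9 ± 5.97 TPM (4, 2 and 2 counts), Fancl, the ubiquitin ligase subunit, at 11.9 ± 8.18 TPM (1, 7 and 7 counts) and Fancc at 10.0 ± 0.0773 TPM (10, 11 and 10 counts). All libraries of Fanci and Fancd2 were above all libraries of Fancf, Fancl and Fancc.

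Of the genes that sense breaks, Rad50 led. It encodes the ATPase of the MRN complex that holds broken ends and had 71, 63 and 73 counts, or 104 ± 12.6 TPM (chromosome 11, 53649519 to 53707319, minus strand). The nuclease gene of that complex, Mre11a, had 33, 35 and 46 counts (52.2 ± 10.8 TPM), and Nbn, the subunit that recruits Atm, had 6, 13 and 12 (32.9 ± 11.3 TPM). Trp53bp1, which shields ends from resection, stood at 50.1 ± 3.04 TPM (87, 86 and 89 counts). No library of Mre11a or Nbn reached any library of Rad50 in TPM.

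Among the damage kinases Chek2, the effector of Atm, stood at 67.5 ± 5.90 TPM (26, 27 and 22 counts) and Chek1, the effector of Atr, at 26.2 ± 2.44 TPM (13, 17 and 15 counts). Atm had 57, 47 and 38 counts and Atr 45, 44 and 57, ranges that overlap. In TPM Atm was at 37.2 ± 8.02 and Atr at 16.8 ± 2.97, but their order depended on the length used. The annotated exons of Atr sum to 23629 bases, against 8102 for its longest transcript, whereas those of Atm sum to 10338 against 9819.

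The end joining genes had the Ku pair at their top. Ku is the ring that caps broken ends, and its subunit genes Xrcc5 (24, 18 and 17 counts) and Xrcc6 (27, 35 and 34 counts) stood at 62.7 ± 13.8 and 57.9 ± 6.63 TPM. Prkdc, the kinase that Ku recruits, had 43, 57 and 55 counts (31.7 ± 3.92 TPM). The final step takes the ligase gene Lig4 (9, 8 and 7 counts, 12.5 ± 1.74 TPM) and its scaffold Xrcc4 (9, 2 and 1 counts, 7.83 ± 8.73 TPM). Xrcc4 was high in replicate 1 and low in the other two.

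In base excision and single-strand break repair the strand break sensors were well represented. Parp1, the main poly(ADP-ribose) polymerase (chromosome 1, 180568924 to 180601254, plus strand), had 84, 83 and 72 counts (122 ± 9.91 TPM), and its relative Parp2 had 24, 20 and 22 (49.4 ± 6.57 TPM). No library of Parp2 reached those of Parp1. The ligase gene Lig3 stood at 65.2 ± 5.87 TPM (51, 64 and 61 counts) and its scaffold Xrcc1 at 43.3 ± 5.31 TPM (34, 29 and 30 counts). Of the exon bases of Lig3, 25.1% lie in exons of Rffl on the other strand. The glycosylase genes were lower, with Ung, which removes uracil, at 23.3 ± 3.55 TPM (14, 15 and 18 counts) and Ogg1, which removes oxidised guanine, at 15.8 ± 8.48 TPM (2, 7 and 4 counts).

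Mismatch repair held the second highest gene. Msh6, which recognises single mismatches (ENSMUSG00000005370, chromosome 17, 87975062 to 87990892, plus strand), had 109, 118 and 98 counts, or 202 ± 12.5 TPM. Msh3, which recognises larger loops, had 29, 31 and 29 counts (21.4 ± 0.208 TPM), and Pms2, a nuclease subunit, had 13, 14 and 13 (13.3 ± 0.0769 TPM). Each library of Msh6 was above every library of Msh3 and Pms2.

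Nucleotide excision repair spanned the whole range. Ddb1, an adaptor of cullin 4 ubiquitin ligases that also serves outside repair (ENSMUSG00000024740, chromosome 19, 10605327 to 10629819, plus strand), had 703, 786 and 710 counts, or 927 ± 12.9 TPM, at percentile 99.2 of the detected protein-coding genes. Ddb2, which binds ultraviolet damage together with Ddb1, had 5, 7 and 5 counts (16.7 ± 2.54 TPM). Ercc3, a helicase of the transcription factor TFIIH, had 17, 45 and 23 counts (79.8 ± 37.4 TPM), high in replicate 2. Its sister helicase gene Ercc2 had 16, 8 and 9 counts (21.6 ± 9.24 TPM), and 42.7% of its exon bases lie in exons of other genes.

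The remaining genes of this pathway were close together, apart from Xpa. The damage sensor Xpc stood at 25.7 ± 4.66 TPM (17, 15 and 20 counts). The subunits of the nuclease that cuts on one side of the lesion, Ercc4 (15, 19 and 18 counts) and Ercc1 (6, 9 and 8 counts), were at 20.9 ± 1.94 and 19.9 ± 3.30 TPM, and the nuclease gene for the other side, Ercc5, at 15.2 ± 0.720 TPM (11, 11 and 11 counts). Xpa, which verifies the damage (chromosome 4, 46155347 to 46196311, minus strand), had 1, 0 and 2 counts, or 4.40 ± 4.39 TPM, the lowest of the 48 genes. Its 3 counts had a 95% exact Poisson interval of 0.454 to 6.43 CPM.

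When the 48 genes were ordered by TPM, few neighbours in the order could be told apart. The counting interval of the ratio to the next gene included 1 at 45 of 47 steps. The exceptions were the step from Ddb1 to Msh6, a ratio of 4.59 (95% interval 4.08 to 5.17), and that from Msh6 to Parp1, a ratio of 1.66 (1.40 to 1.97). The library ranges of neighbouring genes overlapped at 42 of the 47 steps.

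The spread between replicates was close to counting error for these genes. By a chi-square test of the 3 counts, none of the 48 was called as differing between libraries. The Benjamini-Hochberg adjustment ran over all 12473 detected genes, of which the test called 0.0401%. In simulated data the test missed many set changes, so genes not called may still differ. The smallest adjusted p of the 48 was 0.836. At an unadjusted p under 0.05 there were 2 genes, Ercc3 (chi-square p = 0.00258) and Xrcc4 (p = 0.00547), or 4.17%, against 4.89% of all detected genes. An exact multinomial test of the same counts gave p = 0.00339 for Ercc3 and 0.00821 for Xrcc4. Over the 48 genes the median coefficient of variation was 15.4%. The median chi-square statistic was 1.13, against 1.45 over all detected genes and 1.39 for counting error alone.

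**Figure D2:**
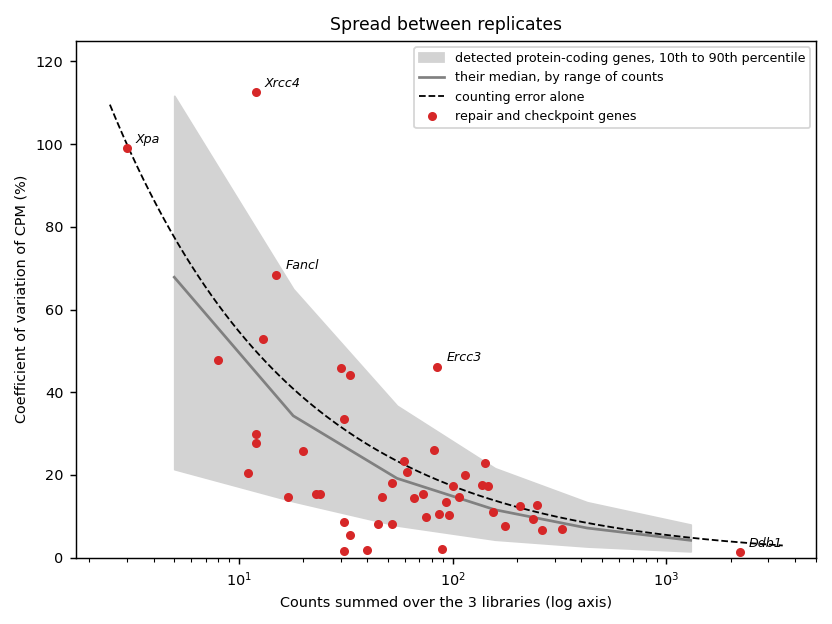
Coefficient of variation of CPM over the 3 libraries (percent) against the counts summed over them (log axis) for each repair and checkpoint gene, with the curve for counting error alone and the band of the 10th to 90th percentile of detected protein-coding genes. Xrcc4 has the widest spread at 113%, and Ddb1, with 2199 counts, has the smallest spread at 1.24%.

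Genes that work as partners or are close relatives were compared within each library, per exon length. Of 22 such pairs, 17 had one direction in all 3 libraries, and for 16 the 95% exact binomial interval of the ratio excluded 1. With 3 libraries the exact two-sided sign-flip permutation test cannot give a p below 0.25, so no pair could pass a threshold of 0.05. Because the ratio depends on the length by which counts are divided, it was also computed with the longest transcript and with the mean transcript length, and 13 pairs kept an interval on one side of 1 with all 3 lengths.

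The widest of these ratios were those of Ddb1 and Msh6. Ddb1 had 55.2 times the level of Ddb2 (34.4 to 94.97), and Msh6 had 9.46 times that of Msh3 (7.46 to 12.1), which came to 3.65 (2.88 to 4.67) with the longest transcript. The exons of Msh3 sum to 11254 bases, against 4254 for its longest transcript. Xpc had 5.98 times the level of Xpa (1.93 to 29.9), with 3 counts in all for Xpa, and 11.03 without replicate 3. Ercc3 stood at 3.79 times Ercc2 (2.51 to 5.85), with log2 ratios of 0.64, 2.98 and 1.86 in replicates 1, 2 and 3. Without replicate 1 the ratio was 5.88, and without replicate 2 it was 2.35. The ratio of Ercc3 to Ercc2 thus varied more between libraries than that of Msh6 to Msh3, with log2 ratios of 3.26, 3.28 and 3.11. The first pair had 85 and 33 summed counts and the second 325 and 89. Whether the 2 spreads differ beyond counting error was not tested.

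The other 9 of the 13 pairs had smaller ratios. Parp1 had 2.48 times the level of Parp2 (1.88 to 3.31), Brca2 2.38 times that of Palb2 (1.60 to 3.64), Rad54l 2.29 times that of Rad54b (1.36 to 4.00) and Brca1 2.26 times that of Bard1 (1.74 to 2.98). Mre11a had 0.499 times the level of Rad50 (0.394 to 0.631) and Nbn 0.318 times (0.210 to 0.465). Chek1 had 0.388 times the level of Chek2 (0.262 to 0.570), Rad51c 0.339 times that of Rad51d (0.158 to 0.682) and Fancl 0.475 times that of Fanca (0.254 to 0.830). The log2 ratios of Fancl to Fanca were -3.10, -0.598 and -0.0732 in replicates 1, 2 and 3. Without replicate 1, where Fancl had a single count, its ratio was 0.742, and no interval was computed for it. The ratio of Rad51c to Rad51d was 0.508 without replicate 2. With the mean transcript length several of these 13 ratios kept their side of 1 but changed in size, to 197 for Ddb1 over Ddb2, 10.5 for Brca1 over Bard1, 4.18 for Brca2 over Palb2, 1.91 for Ercc3 over Ercc2, 0.223 for Fancl over Fanca and 0.161 for Nbn over Rad50.

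In the other 9 pairs the interval included 1 with at least 1 of the lengths. The ratio was 0.929 for Xrcc6 over Xrcc5 (0.665 to 1.31), 0.905 for Fancd2 over Fanci (0.675 to 1.22) and 0.957 for Ercc1 over Ercc4 (0.559 to 1.59), intervals that include 1 and leave differences of that size open. With the longest transcript they were 1.26, 1.05 and 1.65, all above 1. With the mean transcript length the first of these was 4.14 (2.96 to 5.82) and the second 1.38 (1.03 to 1.86). Lig4 over Xrcc4 was 1.62 (0.779 to 3.55) and 4.05 without replicate 1, the library high in Xrcc4. Ung over Ogg1 was 1.45 (0.770 to 2.91) and Rad51c over Rad51b 0.935 (0.378 to 2.34), from 11 to 47 counts a gene. For Atm over Atr the ratio was 2.22 (1.75 to 2.82) by exon length and 0.803 (0.632 to 1.02) by longest transcript, and for Xrcc1 over Lig3 0.660 (0.508 to 0.853) and 1.25 (0.958 to 1.61) by the same lengths. Prkdc over Xrcc5 was 0.509 (0.375 to 0.699), and 0.855 (0.629 to 1.17) by mean transcript length.

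**Figure D3:**
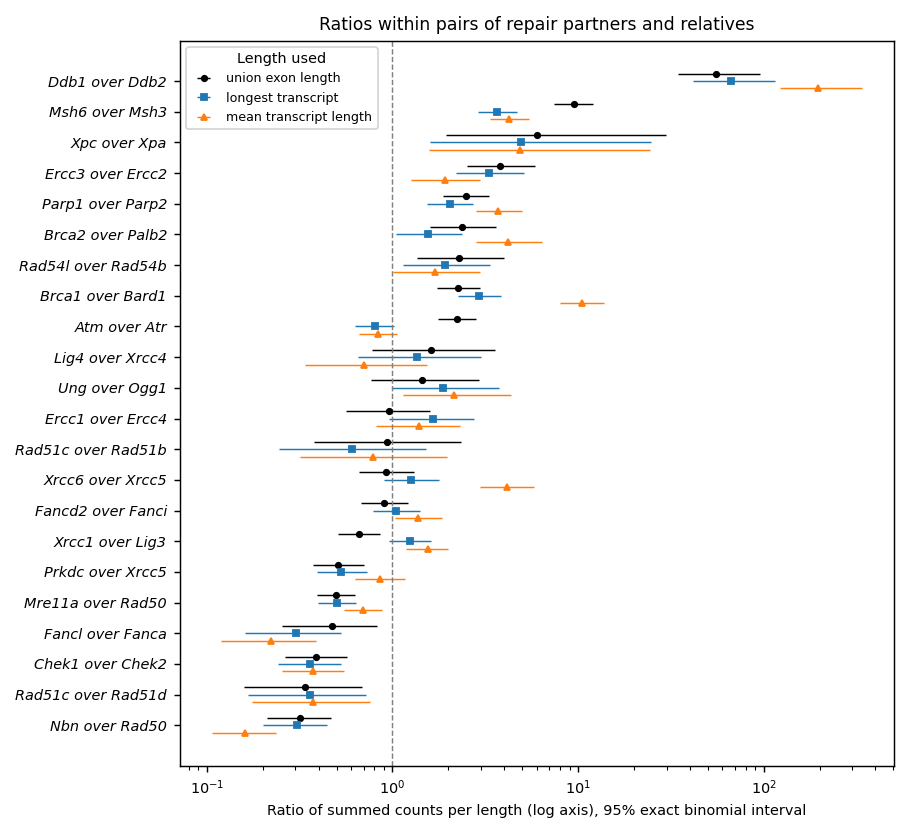
Ratio of summed counts per length (log axis) within 22 pairs of repair genes, first-named gene over second, with 95% exact binomial intervals and 3 choices of gene length. Ddb1 over Ddb2 is the widest ratio, and the points of 6 pairs change sides of the dashed line at 1 with the length used (Atm over Atr, Xrcc1 over Lig3, Xrcc6 over Xrcc5, Lig4 over Xrcc4, Fancd2 over Fanci and Ercc1 over Ercc4).

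A feature that the choice of genes did not use is their position. In mammals many repair genes start next to another gene that is read in the opposite direction, so that both share a promoter region. By the annotation, 19 of the 48 genes (39.6%) had a protein-coding neighbour with such a head-to-head start within 1000 bases, against 17.5% of detected protein-coding genes. In 5 of the 19 the annotated starts overlapped. Within 500 bases the shares were 37.5% and 14.8%. For 3 of these pairs, and for Parp2 with a non-coding neighbour, the stretch between both annotated starts is printed below, from RefSeq on GRCm38.p6 and in the direction of the repair gene. They are shown because their genes had like levels per exon length (Brca1, Chek2), unlike levels (Pms2) or a non-coding partner (Parp2). Capitals mark the motifs found, on either strand, among those searched. These were the CCAAT box, the cell cycle element with the letters TTTGAA, the ETS motif CCGGAAGT, the cyclic AMP element TGACGTCA, the motif of NRF1, and for E2F factors the spellings TTTCCCGC, TTTGGCGC, TTTCGCGC and TTTGCCGC. The CCAAT box on the other strand reads ATTGG.
Brca1 and Nbr1, chr11:101551956-101552148, minus strand: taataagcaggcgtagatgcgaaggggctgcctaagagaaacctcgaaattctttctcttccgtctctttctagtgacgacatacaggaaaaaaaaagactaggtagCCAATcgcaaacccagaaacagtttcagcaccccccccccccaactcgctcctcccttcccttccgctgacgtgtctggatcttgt
Chek2 and Hscb, chr5:110839778-110839978, plus strand: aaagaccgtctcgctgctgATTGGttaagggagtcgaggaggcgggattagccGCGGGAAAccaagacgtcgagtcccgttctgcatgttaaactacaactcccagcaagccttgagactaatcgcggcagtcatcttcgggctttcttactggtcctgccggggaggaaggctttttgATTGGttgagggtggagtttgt
Pms2 and Aimp2, chr5:143909848-143909963, plus strand: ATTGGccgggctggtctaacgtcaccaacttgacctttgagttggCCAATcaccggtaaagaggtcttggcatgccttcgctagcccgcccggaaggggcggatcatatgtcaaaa
Parp2 and Rpph1, chr14:50807768-50807840, plus strand: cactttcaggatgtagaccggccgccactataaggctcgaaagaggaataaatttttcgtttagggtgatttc

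Per exon length, levels within these pairs ranged from nearly equal to far apart. Ratios with other lengths were not computed for these pairs. Of the 19 pairs, the repair gene was lower than its neighbour in 8, higher in 3 and within the counting interval of equality in 6, per exon length, and in the last 2 the neighbour had 0 counts. Brca1 and Nbr1, an autophagy receptor gene, lie 194 bases apart and had 89, 89 and 71 against 71, 82 and 81 counts, a TPM ratio of 0.857 (0.714 to 1.03). Chek2 and Hscb, an iron-sulfur cluster chaperone gene, lie 202 bases apart and had 26, 27 and 22 against 7, 9 and 8 counts. Their TPM ratio was 0.942 (0.588 to 1.56). The intervals of both pairs include 1 and leave differences of that size open.

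Other pairs were far apart in level. Prkdc had 43, 57 and 55 counts and Mcm4, a subunit of the replicative helicase that starts 466 bases away, had 182, 163 and 165, a ratio of 0.0827 (0.0687 to 0.0992). Pms2 stood at 0.177 times Aimp2 (0.113 to 0.277), Lig4 at 0.266 times Abhd13 (0.162 to 0.421) and Palb2 at 0.254 times Dctn5 (0.155 to 0.412). Fancd2 over Emc3 (0.397), Atm over Npat (0.613) and Xrcc4 over Tmem167 (0.226) were also below 1.

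In the opposite direction, Ddb1 had 63.4 times the level of Tkfc (42.8 to 98.1), Mre11a 5.04 times that of Ankrd49 (3.11 to 8.56) and Rad51c 3.43 times that of Tex14 (1.04 to 14.6), which had 1, 0 and 3 counts. Beside Parp2 lies Rpph1, the RNA of ribonuclease P, 74 bases away, with 3, 2 and 1 counts and a TPM ratio of Parp2 to it of 0.967 (0.421 to 2.73), an interval that includes 1. The protein-coding neighbours Ccnb1ip1 of Parp2 and Pinlyp of Xrcc1 had 0 counts in every library.

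**Figure D4:**
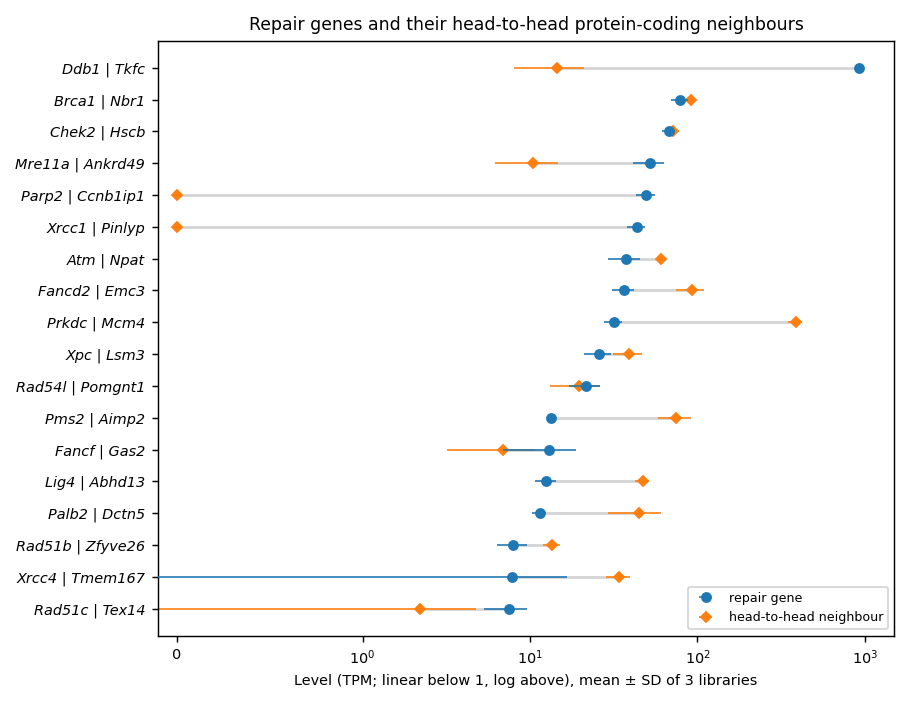
Level in TPM (mean ± SD of 3 libraries; linear below 1 and log above) of 18 of these repair genes and of the protein-coding gene that starts head to head within 1000 bases, with SD bars cut at the left edge where they pass 0. Brca1 and Chek2 lie beside their neighbours, whereas Mcm4 is far above Prkdc and Tkfc far below Ddb1.

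E2F factors drive many genes of the S phase, and their motif was looked for in the promoters, taken as 300 bases that hold a RefSeq start. A promoter was given for 39 of the 48 genes. A gene with several starts had several windows and counted when any of them held the motif, which applied to 10.3% of the 39 genes and 20.9% of detected protein-coding genes. Of these, 7 (17.9%) held 1 of the 4 E2F spellings on either strand, against 5.02% of detected and 3.32% of all protein-coding genes. A match is a description of letters and not a binding site. The CCAAT box was in 21 of 39 (53.8%, against 43.5% of detected genes), the ETS motif in 4 (10.3% against 10.0%), the cell cycle element in 3 (7.69% against 13.8%), the cyclic AMP element in 2 (5.13% against 3.79%) and the NRF1 motif in 1 (2.56% against 2.55%). The 30 bases around the E2F matches of 6 of these genes follow, with the match in capitals, on GRCm38.p6 and in the direction of the gene. Rad51c has a match in each of 2 windows.
Bard1, chr1:71103163-71103192, minus strand: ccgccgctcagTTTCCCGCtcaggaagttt
Brca2, chr5:150522442-150522471, plus strand: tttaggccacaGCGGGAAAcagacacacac
Chek2, chr5:110839820-110839849, plus strand: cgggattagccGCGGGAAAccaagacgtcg
Msh6, chr17:87975054-87975083, plus strand: ctcctcccgacTTTCCCGCcagcggcggcc
Rad51c, chr11:87404941-87404970, minus strand: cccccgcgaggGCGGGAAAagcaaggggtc
Rad51c, chr11:87404477-87404506, minus strand: gtttccagcgcTTTCGCGCctcttgctcta
Xrcc6, chr15:82016312-82016341, plus strand: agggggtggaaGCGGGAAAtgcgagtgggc

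The genes with a match were not all at 1 level. They ran from Msh6 at 202 ± 12.5 TPM through Chek2 (67.5 ± 5.90 TPM), Xrcc6 (57.9 ± 6.63 TPM), Bard1 (34.8 ± 5.79 TPM), Brca2 (27.0 ± 4.79 TPM) and Msh3 (21.4 ± 0.208 TPM) to Rad51c at 7.46 ± 2.15 TPM. Of the 6 highest genes, Msh6 had a match, Ddb1, Parp1 and Brca1 had none, and Rad50 and Ercc3 were not searched.

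Exons shared with other genes were counted from the annotation. The median total exon length was 5577 bases, against 4644 over detected protein-coding genes, with 7 annotated transcripts a gene against 5. In 12 of the 48 (25%, against 13.5%) at least 10% of the exon bases also lay in exons of another gene on either strand. Of the 12, Rad54b had such an overlap on its own strand and the other 11 did not. On the own strand the shares were 2.08% of the 48 genes and 2.49955% of detected protein-coding genes. At 25% of the bases on either strand the shares were 6.25% and 5.04%. The strand setting of the counting is not stated, so reads of these 12 genes may have been dropped or shared. Of the 50-base stretches of a gene, the share that also occurred in a transcript of another gene was highest in Rad54b (34.5%), Ercc2 (29.1%), Lig3 (23.8%) and Ddb2 (17.8%). The genes lay on 17 chromosomes, with 6 on chromosome 11 and 6 on chromosome 7.

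Most of the further repair genes that were listed were detected as well. Of 88 further genes in 8 lists, 86 were detected, with a median of 23.1 ± 1.15 TPM, close to the 25.5 ± 1.86 TPM of the 48 genes. The checkpoint list had the highest median (70.4 ± 3.01 TPM over 15 genes), led by H2afx, the histone variant that marks breaks, at 671 ± 26.5 TPM, Tipin (127 ± 44.0 TPM) and Timeless (102 ± 4.20 TPM). Base excision was led by Apex1 (295 ± 33.6 TPM), Fen1 (196 ± 16.9 TPM) and Lig1 (163 ± 8.38 TPM), with 61.7% of the exon bases of Apex1 and 84.2% of those of Fen1 also in exons of other genes and their counts uncertain, and recombination by the single-strand binding protein genes Rpa1 (241 ± 5.46 TPM) and Rpa3 (82.9 ± 10.8 TPM).

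In the Fanconi list Usp1, which removes ubiquitin from the Fancd2 and Fanci pair, stood at 145 ± 15.2 TPM, ahead of Fancb (22.8 ± 5.03 TPM) and Ube2t (15.0 ± 2.75 TPM). In mismatch repair Pms1 stood at 15.3 ± 4.805 TPM, and end joining was led by Tdp2 (53.6 ± 8.61 TPM), Poll (33.8 ± 4.98 TPM) and Polq (22.2 ± 2.83 TPM). In nucleotide excision repair the Xpc partner genes Rad23b (132 ± 19.1 TPM) and Cetn2 (99.7 ± 15.4 TPM) were high. In the list of translesion and direct repair, Rad18 (43.8 ± 3.72 TPM), Polh (43.4 ± 6.64 TPM) and Rev3l (42.7 ± 4.94 TPM) were close to each other. The genes without a count were Mgmt, which removes alkyl groups from guanine, and the glycosylase gene Neil2. As the limit for 0 counts the level of 3 counts over all libraries was taken, 2.20 CPM. For both genes the 95% exact Poisson interval, as given for Xpa, reached 2.71 CPM. Nhej1, an end joining factor, had 0, 2 and 0 counts.

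Genes of meiotic recombination and antigen receptor rearrangement mostly had no counts at this depth. Of 10 meiotic recombination genes 3 were detected, Psmc3ip (36.1 ± 14.6 TPM), Mnd1 (31.3 ± 15.3 TPM) and Msh5 (1.94 ± 1.68 TPM), and Msh4 had 1 count. Of the 50-base stretches of Mnd1, 40.8% also occur in a transcript of another gene. Of the exon bases of Psmc3ip, 21.2% lie in exons of another gene, so the counts of both are uncertain. Spo11, which cuts DNA in meiosis, the meiotic recombinase gene Dmc1, Hormad1, Sycp1, Sycp3 and Hfm1 had 0 counts. The lymphoid genes Rag1, Rag2 and Dntt, which cut or extend antigen receptor genes, had 0 counts in every library, with the same limit.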

How the data were processed

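The authors deposited whole-number read counts per Ensembl gene for the 3 libraries, not normalised. Per the submitters' processing notes the genome was mm10 and the tools included STAR (an aligner) and HTSeq (a counter). For their versions, strand setting and handling of multiply matching reads the sources used here give nothing. RNA (500 ng) was depleted of ribosomal RNA and cut to about 300 bp, per the labels. The digit ending each column name gave its replicate.

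Names, positions and lengths came from GENCODE M21 (55227 of 55487 identifiers matched). CPM used library sizes scaled in edgeR 4.0.16 (R 4.3.3), with factors of 0.992, 1.00 and 1.01. TPM used the union of annotated exons. The chi-square test was also run on simulated data with set changes and missed many of them. Pair ratios per library used counts + 0.5. For a count of 0, a summed total of 3 counts was taken as the limit. Alternatives included DESeq2 1.42.0 size factors, other lengths, filters and leaving out each replicate. The test per gene took the place of edgeR's quasi-likelihood test, which needs a contrast between groups.

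The genes named are all 48 members, the neighbours, the 3 highest of each further repair list with those below 1 CPM or without counts, and markers. Nhej1 and genes sharing exons with members were named after their values were seen. Members, lists and pairs were chosen with earlier results of these data known. Some genes that the naming rule covers are not reported here.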

Additional observations from a re-analysis of the deposited data

How the results depend on the processing

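All 48 genes stayed detected with DESeq2 size factors, with library totals, at 1 TPM and with each replicate left out (48 to 48), and 47 had a count in every library or reached 5 CPM. The median was 24.7 to 25.1 TPM and 42.2 to 46.1 CPM without single replicates. By mean transcript length it was 31.9 TPM, against 35.9 TPM for detected protein-coding genes. None of the 48 varied between libraries at an adjusted chi-square p under 0.05 in the 8 alternatives, against 1 to 5 of all genes tested. At an unadjusted p under 0.05 there were 1 to 3 of the 48, with no share of all genes computed. Pairs of one direction numbered 17 to 20. The ratio of Xrcc1 to Lig3 reversed to 1.25 by longest transcript and 1.55 by mean transcript length, and that of Atm to Atr to 0.803 and 0.833. Genes with exon overlap numbered 3 at 25% of bases (6.25%, against 5.04% of detected protein-coding genes) and 1 on the same strand (2.08% against 2.49955%), close to the background in both. In these settings only the length or the overlap counted was changed. No paired analysis was possible because there is 1 group. Depth limits the low genes: the summed counts ran from 3 to 2199 with a median of 60, and 3 counts over all libraries equal 2.20 CPM.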
